A study of Equus caballus with 2 samples.

Results

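Chromosome 27 of the horse was examined in reduced representation bisulfite sequencing (RRBS) of 1 equine sarcoid and 1 sample of tumour-distant skin, both taken from horse 1. Its members were the CpGs of chromosome 27 listed in both libraries after the strands of a CpG had been merged, 10592 of the 1087926 CpGs shared over chromosomes 1 to 31, and 12355 CpGs of the chromosome were listed in either library. Of the members, 8574 had at least 10 reads in each library and gave methylation levels, while 2018 had fewer reads in one or both and entered the depth alone. The chromosome was chosen by its read depth in the sarcoid relative to skin, which lay between that of chromosomes 5, 6, 7, 12, 18, 21, 22, 25, 28 and 29 (the deeper 10 chromosomes) and that of the other 20, so depth is described here without a test. With a single library from each tissue, no difference has a replicate check. All differences therefore describe these 2 libraries, and a change within cells cannot be told apart from a change in the mixture of cells of the tissue.

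Sarcoids are skin tumours of fibroblasts in horses, linked to bovine papillomavirus infection. RRBS cuts DNA at CCGG sites with MspI and sequences the ends of short fragments, so reads gather in CpG-rich DNA, and a cytosine that bisulfite leaves as C counts as methylated. The number of reads over a region follows the amount of DNA of that region in the sample, but also the size, base composition and conversion of its fragments. In mammalian tissues CpGs in dense clusters are mostly unmethylated and isolated CpGs mostly methylated. Chromosome 27 is one of the smaller, acrocentric autosomes of the horse, with its centromere at one end.

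The files hold 35970547 reads over cytosines in the sarcoid and 48650606 in skin, so the sarcoid was the shallower library. At the shared CpGs of chromosome 27 there were 344109 sarcoid reads and 446728 skin reads, with a median of 27 reads per CpG in the sarcoid and 34 in skin. On the other 20 chromosomes these medians were 24 in the sarcoid and 34 in skin, and on the deeper 10 chromosomes 29 and 33. Skin medians were alike on these sets, and the sarcoid median of chromosome 27 lay between those of the sets.

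Relative to the median chromosome, sarcoid depth over skin depth of chromosome 27 was 0.11 on the log2 scale, or 1.08-fold, after standardisation over 5 classes of CpG density (counting interval 0.10 to 0.11, which covers counting error only). The deeper 10 chromosomes lay between 0.21 (chromosome 12) and 0.33 (chromosome 18), and the other 20 between -0.11 (chromosome 13) and 0.05 (chromosome 4). Chromosome 27 was thereby the 11th of 31, with chromosome 12 just above it and chromosome 4 just below. Depth was also raised on each strand alone, at 0.12 on the plus strand and 0.08 on the minus strand, where the other 20 chromosomes reached at most 0.05 on the plus strand and 0.04 on the minus strand. The strands are parts of the reads by which the chromosome was chosen, so they are no independent check.

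Windows poor in CpGs had higher sarcoid to skin ratios on every set of chromosomes. On the other 20 chromosomes, windows of 1 Mb with up to 100 shared CpGs had a median log2 ratio of 0.23 and those with over 800 a median of -0.09, although the density of 1 kb tiles had been allowed for. Depth along chromosome 27 was therefore also expressed against the ratio that the other 20 chromosomes showed for CpGs of the same tile density and the same number of CpGs per 1 Mb, called the context-matched ratio below. Matching in this way, chosen after the data were seen, left the chromosome at 0.10 and brought chromosome 8 up to 0.09, so the gap between chromosome 27 and its nearest neighbour below was only 0.01. The deeper 10 chromosomes were between 0.23 and 0.33 on this scale, and chromosome 27 was nearer to chromosome 8 than to any of them.

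**Figure D1:**
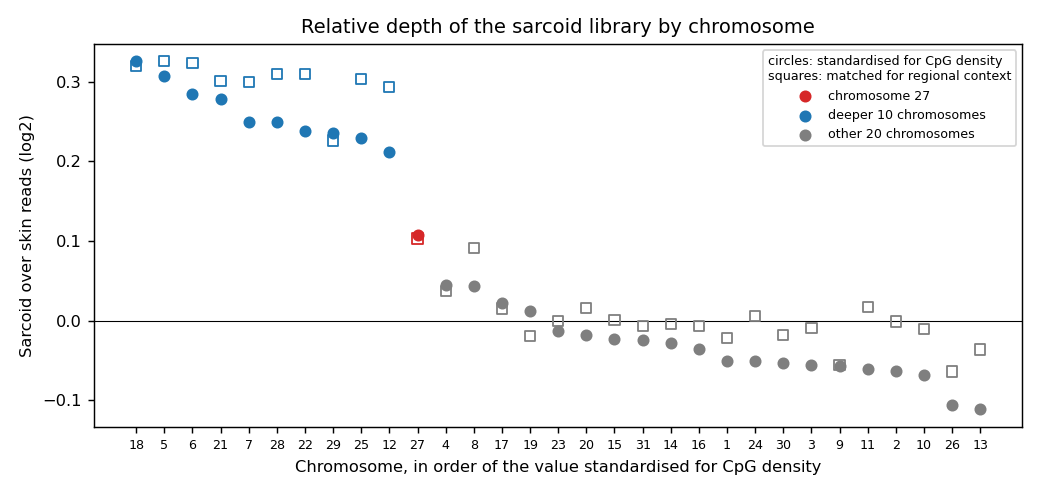
Log2 ratio of sarcoid to skin reads (vertical axis) for each of 31 chromosomes (horizontal axis), standardised for CpG density (circles) or matched for regional context (squares), 1 value per chromosome and no error bars. Chromosome 27 (red) is at 0.11 and 0.10, below the lowest of the deeper 10 chromosomes, and chromosome 8 at 0.09 on the matched scale is close beneath it.

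The raised depth was uneven along the chromosome. It was strongest over the stretch from 10 to 25 Mb and weak or absent towards the far end. From 10 to 15 Mb the context-matched ratio was 0.26 (30831 sarcoid reads, 34849 skin reads), from 15 to 20 Mb 0.22 (30531 and 35975) and from 20 to 25 Mb 0.19 (30488 and 35644). These 3 segments were above 99.7%, 99.4% and 97.5% of the 321 segments of 5 Mb on the other 20 chromosomes, and above 15.7%, 8.66% and 5.51% of the 127 segments on the deeper 10. They therefore stood in the upper edge of the 20 and the lower edge of the 10.

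Outside that stretch, the ratio was 0.10 from 0 to 5 Mb (79655 sarcoid reads, 107502 skin reads) and 0.08 from 5 to 10 Mb (49310 and 66761). It was 0.09 from 25 to 30 Mb, -0.03 from 30 to 35 Mb and 0.03 from 35 to 40 Mb. These 5 segments lay between the 33.0 and 86.3 percentiles of the segments of the other 20 chromosomes. As a median over 1 kb tiles, however, the segment from 30 to 35 Mb was at -0.24, with 0.623% of those segments below it. Summed, the stretch from 10 to 25 Mb, with 25% of the shared CpGs, was at 0.22 (1.17-fold), the 10 Mb before it at 0.09 (1.07-fold) and the 15 Mb after it at 0.03 (1.02-fold). The limits of the stretch were chosen after its values were seen, so its height has no test.

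Single windows of 1 Mb showed how much the stretch owed to a few places. Of 39 windows with at least 50 shared CpGs, 30 were above 0 on the context-matched scale (76.9%), against 93.5% of windows on the deeper 10 chromosomes and 50.3% on the other 20. The window from 12 to 13 Mb was the highest of the chromosome, with 5000 reads in the sarcoid and 3861 in skin over 128 CpGs and a ratio of 0.76. Without the 1 kb tile that held 40.4% of its sarcoid reads it was at 0.65, and without the whole window the stretch was at 0.20 in place of 0.22. The windows from 15 to 16 Mb (0.37) and from 21 to 22 Mb (0.31) came next within the stretch, while the one from 20 to 21 Mb was at -0.00. The windows from 22 to 23 Mb and from 19 to 20 Mb, next after it on the scale standardised for tile density alone (0.58 and 0.53), had 57 and 54 CpGs and fell to 0.23 and 0.19 once matched for regional context. The spread of windows was as wide on chromosome 27 (standard deviation 0.18) as on the other 20 chromosomes (0.18).

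At the other extreme on the scale standardised for tile density, the windows from 33 to 34 Mb, 38 to 39 Mb and 39 to 40 Mb were lowest, at -0.09, -0.08 and -0.05. The window from 38 to 39 Mb, with 25518 sarcoid and 36986 skin reads, and that from 39 to 40 Mb, with 29815 sarcoid and 42759 skin reads, held 1034 and 1047 shared CpGs, the most of any windows. Their context-matched ratios were 0.02 and 0.05. These CpG-rich windows of the last 2 Mb were thus only slightly above 0, while the window from 33 to 34 Mb was at -0.17. On the matched scale the lowest window was the one from 36 to 37 Mb, at -0.31 over 50 CpGs.

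**Figure D2:**
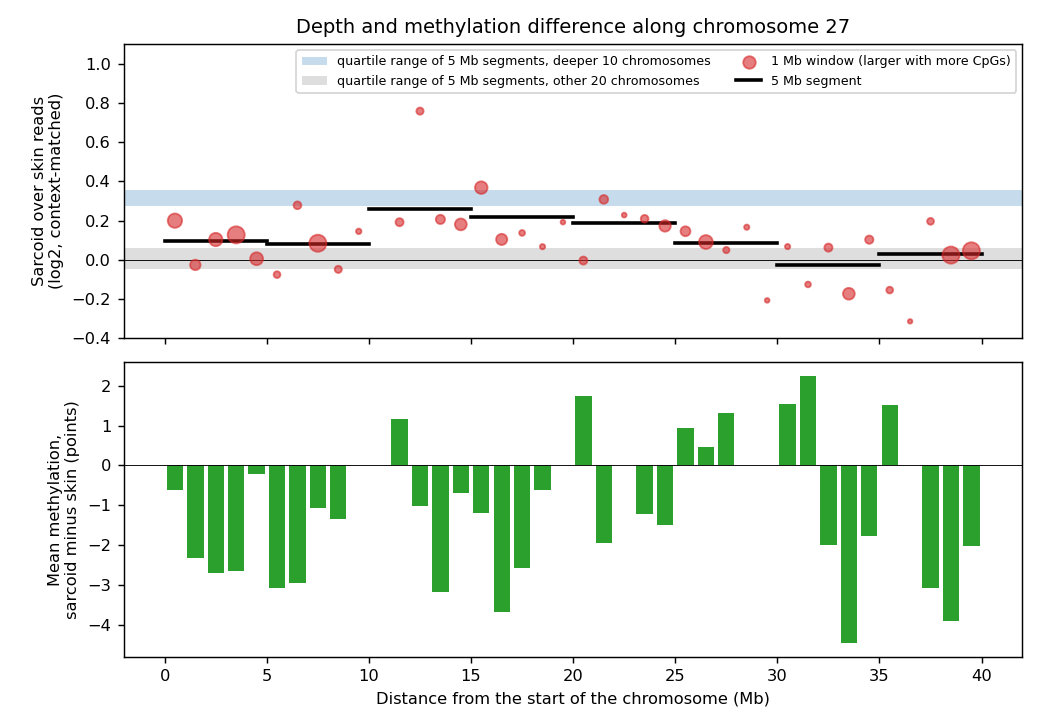
Upper panel, context-matched log2 ratio of sarcoid to skin reads in 1 Mb windows (points, larger with more CpGs) and 5 Mb segments (bars) against distance along chromosome 27 in Mb, with the quartile range of 5 Mb segments of the deeper 10 (blue) and the other 20 chromosomes (grey). Lower panel, mean methylation difference, sarcoid minus skin, in percentage points for windows of at least 50 tested CpGs; the segments from 10 to 25 Mb are the highest at 0.26, 0.22 and 0.19, and the bars of the lower panel do not follow them.

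Unevenness of this size was not limited to chromosome 27. The highest mean of 3 neighbouring segments was 0.22 on chromosome 27, and among the other 20 chromosomes it reached 0.22 on chromosome 4 from 20 to 35 Mb and 0.17 on chromosome 3 from 60 to 75 Mb. The difference between the highest and the lowest such run was 0.19 on chromosome 27, 6th of 31, with chromosome 4 first at 0.25. The chromosomes ranked above it had 16 to 23 segments, against 8 on chromosome 27, and more segments give more runs to choose from. Among chromosomes of at most 10 segments its difference was the largest, with chromosome 30 next at 0.14. Both ends of the range of chromosome 27 lay below the deeper 10. Its lowest run was 0.03, against 0.20 to 0.29 on those 10, and its highest run of 0.22 was 11th of 31, against 0.26 to 0.46.

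Other features moved along the chromosome with depth. The stretch from 10 to 25 Mb was poorer in methylation, with 56.4% of its tested CpGs at a skin level of at most 20% and 23.3% at 80% or more, against 37.7% and 33.7% on the rest of the chromosome. On the other 20 chromosomes, CpGs at least 80% methylated in skin had a lower context-matched depth (-0.09) than those of at most 20% (0.04). Over the tested CpGs alone, the stretch was at 0.22 and the rest of the chromosome at 0.07 by context, and at 0.22 and 0.08 with skin level added to the matching. Taken as the median over 1 kb tiles, in place of a ratio of sums, the stretch was 0.30 above the typical segment of the other 20 chromosomes and the rest of chromosome 27 was 0.01 above it.

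The listing of CpGs followed the same pattern. Listing of a CpG depends on its reads, so CpGs listed in a single library also reflect depth and are no independent measure. Of the CpGs of the stretch from 10 to 25 Mb, 6.94% were listed in the sarcoid alone and 7.97% in skin alone, against 4.804% and 9.25% on the rest of the chromosome. The shares were 5.33% and 7.48% on the deeper 10 chromosomes, and 4.44% and 9.98% on the other 20. The share listed in the sarcoid alone was thus higher in the stretch than on the deeper chromosomes, and in the flanks it was nearer to that of the other 20.

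By CpG density, the whole chromosome was raised in all 5 classes, but the stretch and its flanks differed in where. Relative to the median chromosome of each class, chromosome 27 was at 0.12 in tiles listing 1 to 5 CpGs, 0.11 at 6 to 10, 0.08 at 11 to 20, 0.12 at 21 to 40 and 0.09 at over 40. It was below all of the deeper 10 chromosomes in each class, and above all of the other 20 in each class but that of 11 to 20 CpGs, where it was the 13th of 31 and chromosome 8 reached 0.12. Density therefore did not single out the kind of tile in which the chromosome was deeper.

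Within the stretch from 10 to 25 Mb the context-matched ratio was 0.27 in tiles of 1 to 5 CpGs, 0.40 in those of 6 to 10 and 0.29 in those of 21 to 40, but -0.00 in those of 11 to 20 (562 CpGs) and 0.04 in those of over 40 (181 CpGs). Without the window from 12 to 13 Mb the densest class of the stretch was at -0.25, over 139 CpGs. On the rest of the chromosome the same classes were at 0.05, 0.00, 0.08, 0.08 and 0.23, the last over 368 CpGs. On the deeper 10 chromosomes all 5 classes were between 0.29 and 0.33. The stretch was thus near those chromosomes, or above them, in 3 density classes and near the other 20 in the remaining classes.

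**Figure D3:**
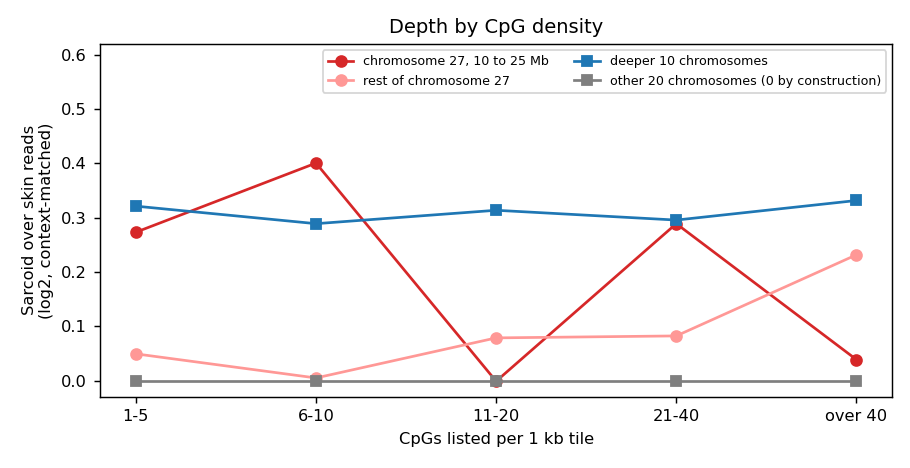
Context-matched log2 ratio of sarcoid to skin reads (vertical axis) by number of CpGs listed per 1 kb tile (horizontal axis), for the stretch from 10 to 25 Mb, the rest of chromosome 27, the deeper 10 chromosomes and the other 20, which are at 0 by construction. The stretch is at 0.27, 0.40 and 0.29 in 3 classes and at -0.00 and 0.04 in the remaining classes, while the deeper 10 are level at 0.29 to 0.33.

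Chromosome 27 had lost a little methylation in the sarcoid. Over the 8574 tested CpGs the mean level was 41.7% in the sarcoid and 43.4% in skin, a difference of -1.69 percentage points (counting interval -1.86 to -1.51). The mean difference was -1.98 points on the deeper 10 chromosomes and -0.924 points on the other 20. Chromosome 27 was 6th of 31 in the size of its decrease. It lay outside the range of the other 20 chromosomes (-1.42 to -0.354) and inside that of the deeper 10 (-2.91 to -0.753), a description of 1 chromosome with no test over animals. Its counting interval overlapped those of chromosome 31 (-1.62 to -1.19) and chromosome 3 (-1.51 to -1.34), both among the other 20.

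The loss was seen in CpG-poor DNA and was small where CpGs were dense. In tiles of 1 to 5 CpGs the mean was 58.7% in the sarcoid and 61.4% in skin (-2.73 points), and in tiles of 6 to 10 CpGs 56.1% and 58.8% (-2.68 points). In tiles of 11 to 20 CpGs it was 36.8% in the sarcoid and 38.3% in skin (-1.47 points), and at 21 to 40 CpGs 21.6% and 21.96% (-0.346 points). Tiles with over 40 CpGs, the densest and least methylated, had 8.99% in the sarcoid and 8.33% in skin, a difference of 0.660 points (0.0903 to 1.23). That direction rested on 2 of 12 tiles, those from 39927001 and from 71001, described below: without both, a choice made after seeing the values, the mean was 4.27% in the sarcoid and 5.10% in skin (-0.825 points). On all chromosomes together the corresponding 5 differences were -1.97, -1.36, -1.30, -0.751 and -0.270 points.

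CpGs of low level were more frequent, and those of high level less so, in the sarcoid. Levels no higher than 20% were found at 43.9% of tested CpGs in the sarcoid and 42.5% in skin, and levels of 80% or more at 29.1% and 31.1%. The share from 30% to 70% was 17.8% in the sarcoid and 17.4% in skin. On the deeper 10 chromosomes the share of such intermediate CpGs was instead lower in the sarcoid, at 19.7% against 20.98% in skin, and on the other 20 it was 20.1% in the sarcoid and 19.99% in skin. These differences of shares were not tested.

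Methylated and unmethylated reads of each CpG were compared between the libraries with Fisher's exact test (two-sided), Benjamini-Hochberg adjusted over the 877053 tested CpGs of the genome. A call needed a q under 0.01 together with 25 or more points between the libraries. In the sarcoid 153 CpGs of chromosome 27 (1.78%) passed as lower and 45 (0.525%) as higher. Over all chromosomes 1.89% were called lower and 0.954% higher. The share of decreases was thus near that of the genome, while the share of increases was the lowest of the 31 chromosomes. Decreases outnumbered increases by 3.40 to 1, against 2.45 to 1 on the deeper 10 chromosomes and 1.64 to 1 on the other 20, and of the single chromosomes chromosome 7 had a higher ratio at 3.43.

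Calls depend on depth, so CpGs were also compared at 10 reads in each library. At that depth 5.11% of the tested CpGs of chromosome 27 were at least 40 points lower in the sarcoid, against 6.50% on the deeper 10 chromosomes and 4.94% on the other 20. At least 40 points higher were 2.81% on chromosome 27, against 3.71% and 3.54% on those sets, the second lowest share of 31 chromosomes. Sampling of 10 reads puts unchanged CpGs past 40 points, so these are not shares of changed CpGs.

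**Figure D4:**
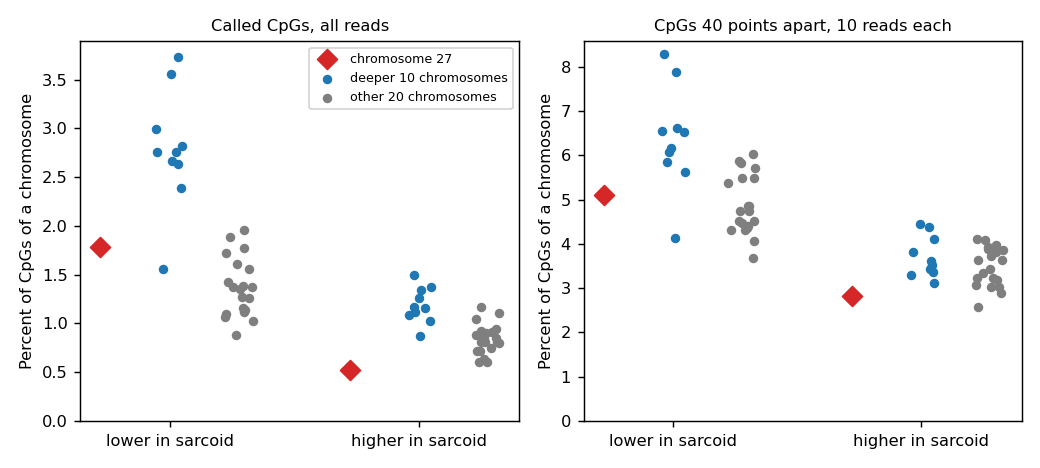
Percent of tested CpGs per chromosome (vertical axis) that were called lower or higher in the sarcoid with all reads (left) and that differed by at least 40 points at 10 reads per library (right), 1 point per chromosome, with chromosome 27 as a red diamond. For decreases called with all reads, chromosome 27 at 1.78% lies within the ranges of both the other 20 and the deeper 10 chromosomes. It is at the bottom of all chromosomes for increases called with all reads, at 0.525%.

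Without adjustment for skin level, the methylation difference did not follow depth along the chromosome. In the deeper stretch from 10 to 25 Mb the mean was 30.97% in the sarcoid and 32.3% in skin, a difference of -1.38 points (counting interval -1.70 to -1.05). In the 10 Mb before it the difference was -1.68 points (-1.98 to -1.39), from 39.6% in the sarcoid and 41.3% in skin, and in the 15 Mb after it -1.89 points (-2.20 to -1.58), from 50.9% in the sarcoid and 52.8% in skin. The stretch of raised depth therefore had the smallest decrease of the 3 parts, and the 3 intervals overlap one another. The parts differed in skin level: 56.4% of tested CpGs were at most 20% in the stretch, 44.3% before it and 31.4% after. On chromosome 27 such CpGs differed by 1.05 points, and those at least 80% methylated in skin by -4.79 points. The decreases of the parts were not compared at equal skin level. In the stretch 34 CpGs (1.56%) were called lower and 8 (0.367%) higher, against 119 (1.86%) and 37 (0.579%) on the rest of the chromosome. Over 33 windows with at least 50 tested CpGs, context-matched depth and methylation difference had a Pearson correlation of -0.09 and a Spearman correlation of -0.11, with both quantities from the same reads and libraries.

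Most windows lost methylation. The mean was lower in the sarcoid in 25 of the 33 windows and higher in 8, with a median of -1.34 points and a range of -4.46 to 2.25. Windows were lower in 71.9% of cases on the deeper 10 chromosomes and 65.4% on the other 20. By segments of 5 Mb, 7 of 8 were lower, most at the far end, where the segment from 35 to 40 Mb had 61.4% in the sarcoid and 64.1% in skin (-2.71 points). The segment from 25 to 30 Mb was the exception, with 36.1% in the sarcoid and 35.9% in skin (0.290 points).

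Among windows with at least 50 tested CpGs, the 3 largest decreases were at low or moderate depth. The window from 33 to 34 Mb had a mean of 48.4% in the sarcoid and 52.9% in skin (-4.46 points), with 9 of 253 CpGs called lower and 1 higher, and it was also the window of lowest depth as standardised for tile density. The window from 38 to 39 Mb had 69.5% in the sarcoid and 73.4% in skin (-3.91 points), with 19 of 763 CpGs called lower and 3 higher. From 16 to 17 Mb the mean was 38.3% in the sarcoid and 42.0% in skin (-3.69 points), with 5 of 249 called lower and 0 higher, at a context-matched depth of 0.10. Some windows with fewer tested CpGs had larger differences than the last of these. The window from 29 to 30 Mb (43 CpGs, -4.17 points, 3 called lower) was at a context-matched depth of -0.21. The windows from 9 to 10 Mb (47 CpGs, -3.92 points) and from 22 to 23 Mb (48 CpGs, -3.80 points) were at 0.15 and 0.23. Called lower were 3.56%, 2.49% and 2.01% of the tested CpGs of the first 3 windows, and 6.98%, 4.26% and 4.17% of the others. The genome's share was 1.89%, and these windows were chosen for their decrease.

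The largest increases by window were smaller and rested on few called CpGs. The window from 31 to 32 Mb had 14.9% in the sarcoid and 12.7% in skin (2.25 points) over 73 CpGs, with 0 called in either direction. From 20 to 21 Mb the mean was 37.5% in the sarcoid and 35.8% in skin (1.75 points), with 1 CpG called each way, and from 30 to 31 Mb 58.5% and 57.0% (1.55 points) with 0 called. With fewer tested CpGs, the window from 19 to 20 Mb rose by 2.11 points (47 CpGs, 0 called), at a context-matched depth of 0.19. The window from 12 to 13 Mb, highest in depth, differed by -1.01 points over 113 CpGs with 0 called.

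At the scale of 1 kb tiles with at least 3 tested CpGs, 47 of 1019 tiles (4.61%) were at least 25 points lower in the sarcoid, as unweighted means over their CpGs, and 21 (2.06%) at least 25 points higher. Over all chromosomes 3.95% of tiles were that much lower and 2.39% that much higher, so both shares were near those of the genome. No test was made on tiles, whose CpGs share reads. The 68 tiles held a median of 5 tested CpGs, and 43 of them held a CpG called singly. In the stretch from 10 to 25 Mb, 12 of 242 tiles (4.96%) were that much lower and 3 (1.24%) higher, against 18 (5.10%) and 10 (2.83%) of 353 tiles in the 10 Mb before it and 17 (4.01%) and 8 (1.89%) of 424 in the 15 Mb after it.

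The largest decrease lay between 1801001 and 1802000, a tile whose 4 CpGs averaged 29.4% in the sarcoid and 89.8% in skin. Its CpGs at 1801123, 1801133, 1801136 and 1801149 had 35.3%, 29.4%, 29.4% and 23.5% in the sarcoid over 17 reads each, against 83.3%, 88%, 100% and 88% in skin over 24 or 25 reads. All 4 were lower and 3 were called. At 1801136 the Wilson 95% intervals were 13.3% to 53.1% in the sarcoid and 86.7% to 100% in skin (q = 8.5e-05 by Fisher's exact test). All these reads came from the minus strand and thus from the same fragments.

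A second tile of the same window, from 1983001 to 1984000, had a mean of 22.7% in the sarcoid and 79.0% in skin over 5 CpGs from 1983086 to 1983184, of which 2 were called. Levels at those CpGs were between 4.55% and 33.3% in the sarcoid and between 72.7% and 84% in skin, so the libraries did not overlap. Both tiles lay in the window from 1 to 2 Mb, whose context-matched depth was -0.03. Of the 227 tested CpGs of that window 12 (5.29%) were called lower and 6 (2.64%) higher, both above the genome's 1.89% and 0.954%. The window is described because it holds these 2 tiles, which supply 3 and 2 of its lower calls, so its share was raised by that choice.

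The next largest decreases began from lower skin levels, between 53.3% and 74.0%. The tile from 7631001 to 7632000 had 5.26% in the sarcoid and 53.3% in skin at 3 CpGs, with 10 reads per CpG in skin and 0 called. The tile from 26697001 to 26698000 had 10.3% in the sarcoid over 38 or 39 reads and 56.1% in skin over 44 reads at 3 CpGs within 21 bp, and all 3 were called. With 5 reads as the minimum, 6 of its CpGs entered and the difference was -20.1 points. From 7832001 to 7833000 the mean was 29.4% in the sarcoid and 74.0% in skin over 7 CpGs, all lower and 4 called. At 7832682 in that tile the level was 30.3% in the sarcoid (17.4% to 47.3%, 33 reads) and 88% in skin (76.2% to 94.4%, 50 reads), and both strands were read there.

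Among tiles with increases, the largest change was from 26846001 to 26847000, with 69.7% in the sarcoid over 11 reads per CpG and 16.9% in skin over 22 or 23 reads at 6 CpGs, 6 of 6 higher and 1 called. It lies in the same 1 Mb window as the decreased tile from 26697001. From 4062001 to 4063000 the mean was 73.7% in the sarcoid and 27.2% in skin over 3 CpGs, and at 4062625 the level was 84.4% in the sarcoid (71.2% to 92.3%, 45 reads) and 31.7% in skin (21.6% to 44.0%, 63 reads), with both strands read.

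In 2 further tiles with increases 1 CpG was out of step with its neighbours. From 33930001 to 33931000 the mean of 7 CpGs was 48.2% in the sarcoid and 6.08% in skin. Of these CpGs 6 had 50% to 60% in the sarcoid and 3.70% to 10.3% in skin, and the one at 33930247 had 8.33% and 3.85%. From 25761001 to 25762000, 5 of 6 CpGs were higher, at 71.4% to 96% in the sarcoid and 25% to 45.2% in skin, and the CpG at 25761657 had 17.9% in the sarcoid and 24.2% in skin. All 3 CpGs of the tile from 38476001 to 38477000 were higher, with a mean of 81.2% in the sarcoid and 38.1% in skin, 16 sarcoid reads each and 0 called.

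**Figure D5:**
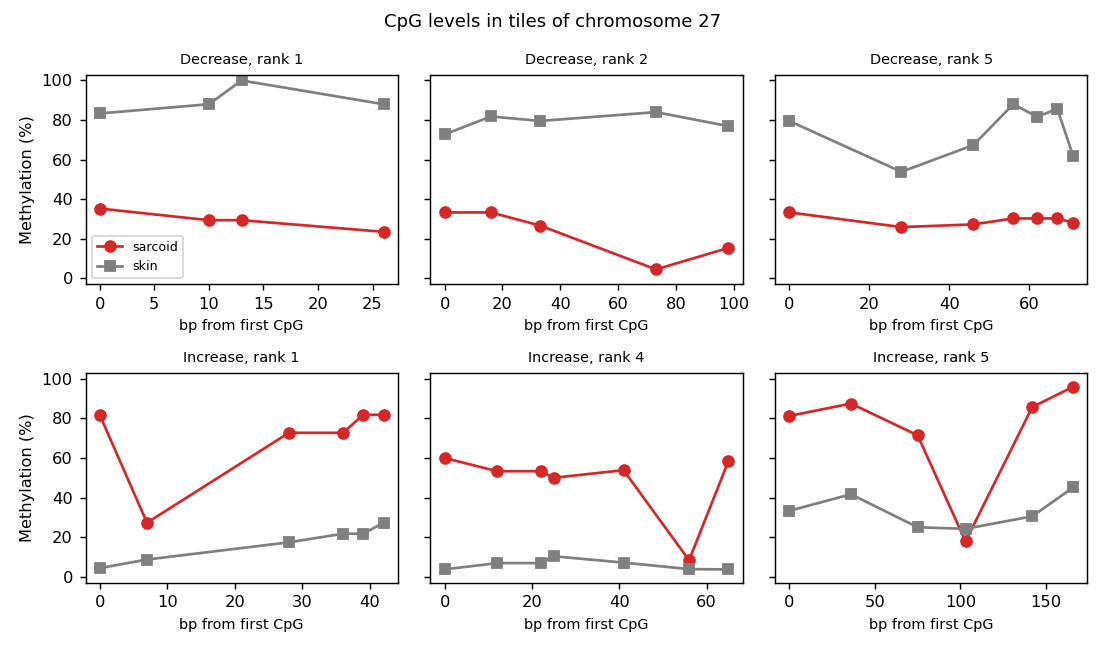
Methylation level in percent (vertical axis) of each tested CpG in the sarcoid (red) and in skin (grey) against distance in bp from the first tested CpG, in 6 tiles of chromosome 27: those from 1801001, 1983001 and 7832001 (upper row) and from 26846001, 33930001 and 25761001 (lower row). The libraries are apart at all CpGs of the upper row, and 1 CpG each of the tiles from 33930001 and 25761001 stays near its skin level.

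Tiles dense in CpGs were mostly of low level in both libraries on chromosome 27. Of 106 tiles listing over 20 CpGs, 75 (70.8%) had a mean of at most 20% in both libraries, against 57.6% on the deeper 10 chromosomes and 67.4% on the other 20. The median level of dense tiles was 1.28% in the sarcoid and 1.102% in skin. At least 25 points lower was 1 of them (0.943%) and 0 were that much higher, near the 1.23% and 0.879% of dense tiles over the genome. In tiles of 21 to 40 CpGs, 2 of 2079 CpGs were called lower (0.0962%) and 3 higher (0.144%), against 1.17% and 0.720% over all chromosomes. In tiles of over 40 CpGs both shares were above those of the genome, with 3 of 481 CpGs called lower (0.624%) and 3 higher (0.624%), against 0.480% and 0.336%. All 3 lower calls were in the tile from 7823001 and all 3 higher calls in that from 71001, both described below. These shares thus rest on 1 tile each way.

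Among dense tiles with at least 10 tested CpGs, the largest fall was from 24880001 to 24881000, with 66.0% in the sarcoid over 2398 reads and 75.6% in skin over 2092 reads summed over 22 CpGs, of which 18 were lower and 0 called. From 39754001 to 39755000 the mean was 81.7% in the sarcoid and 89.9% in skin over 15 CpGs, with 1 called lower. From 7823001 to 7824000 it was 3.21% in the sarcoid and 10.1% in skin over 59 CpGs, with 3 called lower. In that last tile the change was at one end: the CpGs from 7823666 to 7823772 that differed by over 25 points had 0% to 25% in the sarcoid and 38.5% to 71.2% in skin.

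The largest rise among such tiles was from 30047001 to 30048000, with 40.1% in the sarcoid and 27.5% in skin over 17 CpGs, 12 of them higher and 0 called. The tile from 39927001 to 39928000 had 13.02% in the sarcoid and 5.08% in skin over 44 CpGs, 26 higher, 10 lower and 0 called. From 71001 to 72000 the mean was 53.9% in the sarcoid and 46.0% in skin over 38 CpGs, 28 higher and 3 called. Weighted by reads the difference of this tile was 13.9 points, against 7.82 points unweighted. At 71821 in that tile the level was 75.2% in the sarcoid over 141 reads and 43.1% in skin over 102 reads.

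The observed levels of the 2 strands of a CpG were often apart in both libraries on chromosome 27. Of CpGs with 10 reads on each strand, the strands were at least 30 points apart at 18.3% of 3479 CpGs in the sarcoid and 13.8% of 3490 in skin. The shares were 16.6% and 12.3% on the deeper 10 chromosomes and 17.1% and 12.2% on the other 20. Sampling of as few as 10 reads per strand also puts strands apart, so these are not shares of CpGs whose strands truly differ. Merged levels of those CpGs average strands of unlike observed level, and the part of this in the differences was not tested. At CpGs with both strands listed in both libraries the mean difference of the chromosome was -1.61 points.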

How the data were processed

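RRBS libraries of 1 sarcoid and 1 tumour-distant skin sample were sequenced with 75 bp single-end reads, per the labels' protocols. BSMAP, FastQC and methylKit are named per the submitters' processing notes, and settings and genome build were not given in the sources used here. Each deposited file gives, as its header states, coverage as a read count at every listed cytosine and the percent of reads showing C and T. Positions are as deposited, and genes and sequences at them were not used here. Methylated reads were coverage times percent, rounded to a whole number (further from whole than rounding allows at 0.543% of sarcoid and 0.567% of skin cytosines). Strands were summed. The authors' deposited table of comparisons holds chromosome 1 only and was not used here.

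Depth was the log2 ratio of summed reads, standardised over classes of CpGs listed per 1 kb tile (1-5, 6-10, 11-20, 21-40 and over 40). Context matching used the other 20 chromosomes and classes of up to 100, 200, 400, 800 and more CpGs per 1 Mb. Counting intervals are 95% and cover counting error only. PCR copies are not independent molecules and a read counts at each of its CpGs, so they are too narrow, and Fisher's tests compare 2 libraries, not conditions. Tiles and windows were named by rule: the 5 tiles of largest fall and the 5 of largest rise past 25 points, 3 each way among tiles listing over 20 CpGs with 10 tested, the 3 windows of highest and of lowest depth and 3 each way by methylation; others were named after their values were seen. The chromosome, the classes and the tests were chosen with earlier results of these data known. The Fisher test was tested on simulated data. Tests and tables were made in SciPy 1.17.1 and NumPy 2.4.6 with numba 0.67.0, under Python 3.11.15; tables were handled in pandas 2.3.3 and figures drawn in matplotlib 3.10.9.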

Additional observations from a re-analysis of the deposited data

How the results depend on the processing

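The depth of chromosome 27 (0.11) stayed above 0 under all alternatives run, which reuse the reads by which the chromosome was chosen. It was 0.11 without standardisation for CpG density, 0.13 as the median over CpGs, 0.12 on the plus strand, 0.076 on the minus strand and 0.11 when matched also for skin level, the last 3 chosen after seeing the data. The mean methylation difference was -1.50 points on the plus strand only and -2.16 points weighted by reads, against -1.69. CpGs called lower, 153 in the main comparison, numbered 98 with both strands listed in both libraries and 52 on the plus strand only; those called higher, 45, numbered 18 on the plus strand only. These settings tested fewer CpGs. Thinned to 10 reads, Fisher's exact test called 0 lower and 0 higher, on chromosome 27 and over the genome alike. These 0 counts are thus not particular to the chromosome. The same test put 229 of 8574 CpGs (2.67%) of chromosome 27 at an unadjusted p below 0.05, against 2.81% over the genome. Tiles at least 25 points lower (47 of 1019) numbered 26 of the 626 with at least 5 CpGs per tile. On the plus strand only such tiles numbered 23 of 665. Those higher (21) numbered 11 and 12 at these settings. Genome shares of tiles at these settings are not given here. The 16 named tiles kept their direction in all 41 recomputed values. The tiles were chosen for the size of their difference and the values reuse the same reads, so this is no independent check. The tile from 26697001 differed by -20.1 points at 5 reads in both libraries, against -45.7 points. The segment from 30 to 35 Mb was at -0.24 as a median over tiles, against -0.03 as a ratio of sums; the cause was not tested. The tile from 71001 rose by 13.9 points weighted by reads, that from 24880001 differed by -12.6 points weighted by reads, and that from 7823001 by -8.67 points at 20 reads. No paired analysis was possible because each tissue has 1 library.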
